A study of Saccharomyces cerevisiae with 30 samples.

Results

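The mitochondrially encoded transcripts of budding yeast were examined as the 28 rows whose identifier begins with Q, the prefix of genes on the mitochondrial genome, among the 6377 rows of the expression table. All cultures were *S. cerevisiae* of the W303 background with *SPO11*, a gene needed for meiotic recombination, deleted. All were grown in fresh rich medium at 36°C for some hours before harvest. In 8 independent lines, tetraploid cells had been propagated for 1000 generations at a lower temperature, and 1 clone of each was then isolated (evolved 1 to evolved 8). Each such clone was compared on 2-colour spotted oligonucleotide arrays with the ancestral tetraploid clone of its own line (ancestral 1 to ancestral 8). Evolved 4 and ancestral 4 were each also compared with a diploid. Each comparison was run on 3 arrays, which were technical triplicates. A line is therefore represented by a single clone, chosen for the highest fitness among the colonies tested. In the main model, p-values within a line rest on the spread between technical arrays, pooled over the 10 comparisons. They do not measure the spread between clones.

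Every value is a log2 ratio, evolved over ancestral in the 8 lines and tetraploid over diploid otherwise, so that 1 is a 2-fold difference and a positive value is higher in the culture named first. The 28 rows comprised 7 subunits of the respiratory chain and ATP synthase, the ribosomal protein VAR1, 10 proteins encoded in introns, 1 further annotated row (Q0255), and 9 rows whose identifiers were not matched to the R64 annotation. The first 3 classes, 18 rows in all, are called the rows with a role below.

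The mitochondrial genome of yeast encodes a few hydrophobic core subunits of complexes III and IV and of ATP synthase, which are assembled with subunits made from nuclear genes. Its genes are read by a dedicated RNA polymerase into long primary transcripts that are then cut and spliced. *COX1*, *ATP8* and *ATP6* lie on 1 such transcript, and *OLI1* and *VAR1* on another. The open reading frames named AI and BI lie in introns of *COX1* and *COB*, and most of them run on from the exons before them. Rows of this kind can therefore report overlapping RNA, and probe sequences were not analysed here. In RNA from whole cultures, fewer cells with mitochondrial transcripts and less transcript per cell cannot be told apart.

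The table was well filled for these rows. Of 840 cells, 23 were empty, all in *ATP6* and *BI3*, and 26 rows had a value on every array. The arrays held 6095 to 6360 values over all rows, with medians between −0.0335 and 0.0366. The identity of rows rests on the names as listed. Rows listed as cytosolic ribosomal proteins, a class of nuclear genes, had a mean pairwise correlation of −0.0037 over the 30 arrays (114 complete rows), against 0.0018 over all pairs of complete rows, so the values did not bear out these names. Names of all rows, members included, are given as listed. Over all rows, line 1 ran against line 3 with a Pearson correlation of −0.71 across rows, although the labels give both lines the same dye orientation.

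The mitochondrially encoded rows were mostly higher in evolved than in ancestral cells in lines 2, 4, 6 and 8, and lay around 0 in lines 1, 3, 5 and 7. The median log2 ratio of the 28 rows was 0.25 ± 0.05 in line 2, 0.38 ± 0.04 in line 4, 0.34 ± 0.07 in line 6 and 0.23 ± 0.05 in line 8 (mean of array medians ± SD, n = 3 arrays). In the other 4 lines it lay between −0.07 and −0.0032. The lowest of the 3 array medians was 0.20, 0.35, 0.26 and 0.19 in lines 2, 4, 6 and 8, so each array of these lines was above 0. Averaged over the 8 lines the median was 0.14.

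**Figure D1:**
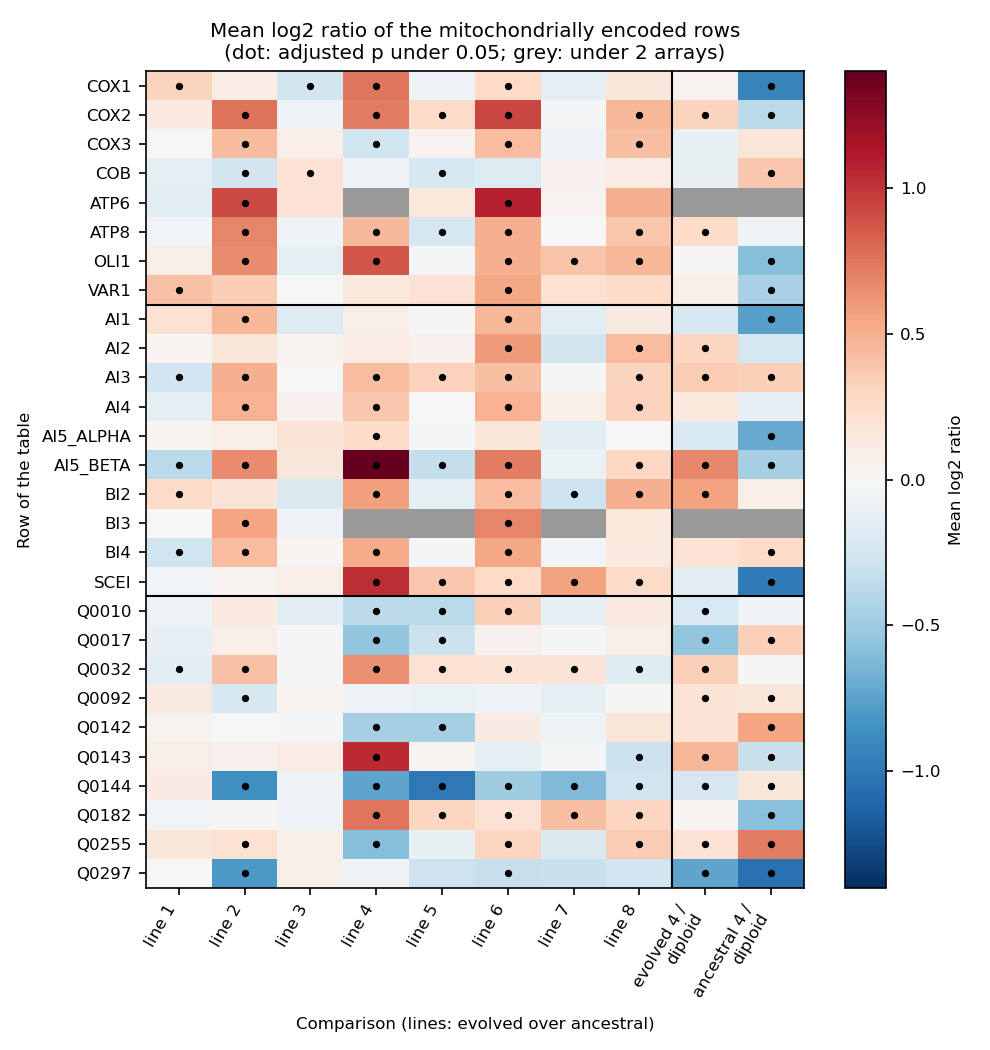
Mean log2 ratio of each of the 28 rows (vertical: subunits and VAR1, then intron-encoded rows, then other rows) in the 8 lines and the 2 comparisons with the diploid (horizontal). Dots mark an adjusted p under 0.05 and grey cells had fewer than 2 arrays. Red prevails among the upper 18 rows in lines 2, 4, 6 and 8, and the highest value is 1.39 in AI5_BETA of line 4.

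At the full call rule, an adjusted p under 0.05 and at least 2-fold, few rows were called. In line 4, 3 of 26 rows tested were called, all higher (11.5%, against 8.39% of all rows tested in that line). They were AI5_BETA, Q0143 and SCEI, and all 3 lost the call under quantile normalization, at 0.82, 0.64 and 0.62. In line 5, 1 of 27 rows was called, Q0144, which was lower (0.366% of all rows were called). In line 6, 1 of 28 rows was called, *ATP6*, which was higher (0.739% of all rows). None was called in lines 1, 2, 3, 7 and 8, where the shares of all rows called were 0.624%, 1.45%, 0.584%, 0.222% and 0.204%. At an unadjusted p under 0.05 in the same limma fit, these lines had 8, 19, 3, 9 and 18 members (48%, 53.8%, 45.3%, 39.5% and 33.9% of all rows). Over the 8 lines together, 5 of 220 tests were called (2.27%, against 1.56% over all rows).

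By the adjusted p alone, in limma's moderated test, the rows separated by direction. In line 6, 20 of 28 rows passed higher (71.4%, against 19.2% of all rows) and 2 passed lower (20.8% of all rows). In line 2, 13 passed higher (24% of all rows) and 4 lower (23.9%). In line 8, 12 passed higher (11.2% of all rows) and 3 lower (11.1%). In line 4, 14 of 26 passed higher (35.6% of all rows) and 6 lower (31.1%). The excess over the background was thus on the higher side in these 4 lines. In line 1, 3 rows passed higher (20% of all rows) and 4 lower (20.6%), and in line 3, 1 passed each way (17.6% and 18.8%). In line 5, 5 passed higher (19% of all rows) against 7 that passed lower (21.6%). In line 7 there were 4 on the higher side (14.6%) and 2 on the lower (15.1%). Leaving out replicate 2 of every comparison reduced the 12 higher rows of line 8 to 7. By the methods' t-test at a Benjamini-Hochberg adjusted p under 0.05, 5, 13, 0 and 0 members passed higher in lines 2, 4, 6 and 8. The shares of all rows were 7.14%, 27%, 0.0157% and 0%.

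The rows with a role held most of the higher values in these 4 lines. In line 6, 16 of these 18 rows passed higher and none lower, in line 2, 11 passed higher and 1 lower, and in line 8, 10 passed higher and none lower. In line 4, 11 of 16 passed higher and 1 lower. The shares of all rows that passed higher were 19.2%, 24%, 11.2% and 35.6% in lines 6, 2, 8 and 4. The rows with a role had a median per array that averaged 0.45 ± 0.06 in line 2, 0.46 ± 0.06 in line 4, 0.48 ± 0.14 in line 6 and 0.27 ± 0.07 in line 8 (SD, n = 3 arrays). In lines 1, 3, 5 and 7 it lay between −0.011 and 0.0038. The 10 other rows had lower medians, of 0.06 ± 0.06, −0.20 ± 0.02, 0.12 ± 0.05 and 0.04 ± 0.10 in lines 2, 4, 6 and 8. In line 6 their 3 array medians were all above 0 (0.07 to 0.15). Of these 10 rows, 2, 3, 4 and 2 passed higher in lines 2, 4, 6 and 8. Those that passed lower were 3, 5, 2 and 3 (23.9%, 31.1%, 20.8% and 11.1% of all rows).

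**Figure D2:**
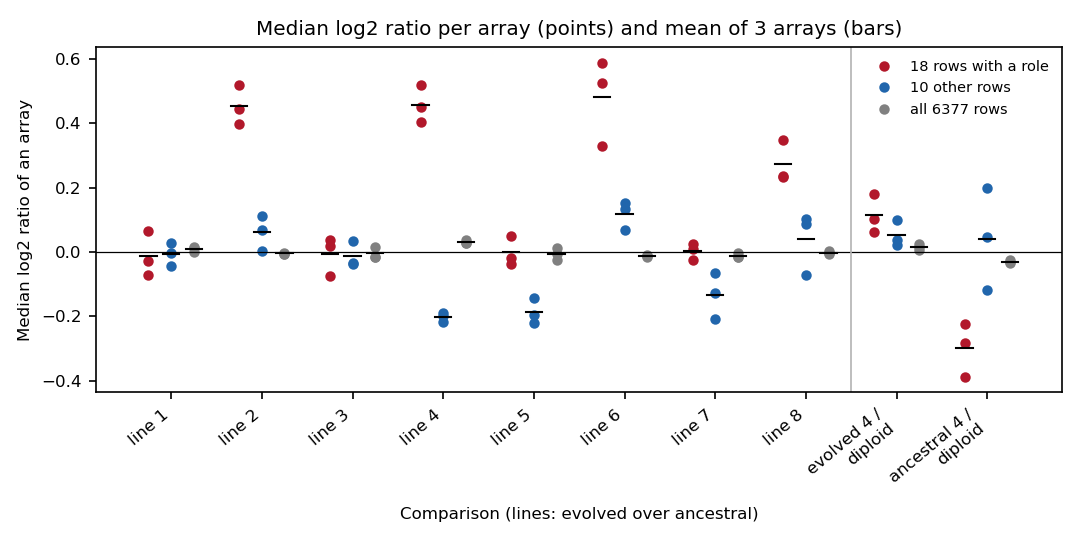
Median log2 ratio of each array (vertical) for the 18 rows with a role, the 10 other rows and all rows of the table, by comparison (horizontal); points are arrays and bars the mean of 3. The rows with a role stand between 0.23 and 0.59 on the 12 arrays of lines 2, 4, 6 and 8, while all rows stay near 0.

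COX1, COX2 and COX3 form the catalytic core of cytochrome c oxidase, complex IV of the respiratory chain. COX2 had the highest mean over the 8 lines of any row with a value in all of them, 0.40 ± 0.38 (SD, n = 8 lines). With the sign of line 1 turned AI5_BETA had the highest, 0.39, and COX2 0.37. The arrays of COX2 read 0.73, 0.81 and 0.74 in line 2, 0.72, 0.68 and 0.77 in line 4, and 1.11, 1.00 and 0.69 in line 6. None of these 9 arrays overlapped those of line 1 (0.26, 0.07 and 0.09), line 3 (−0.11, −0.06 and −0.04) or line 7 (0.13, −0.18 and 0.01). COX2 rose by 0.76, 0.72, 0.94 and 0.46 in lines 2, 4, 6 and 8 (adjusted p = 6.07e-09, 3.35e-09, 4.75e-10 and 7.51e-05), and also in line 5, by 0.27 (adjusted p = 0.0058).

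The other 2 subunits of complex IV shared only part of this pattern. COX1, the largest subunit, rose most in line 4, with arrays at 0.70, 0.84 and 0.72 (mean 0.75, adjusted p = 8.98e-10). It rose less in line 1 (0.31) and line 6 (0.27), fell by 0.25 in line 3 (adjusted p = 0.00678), and measured 0.10, −0.06, −0.12 and 0.15 in lines 2, 5, 7 and 8, none past the test. COX3 rose in line 2 (0.44), line 6 (0.43) and line 8 (0.42), with adjusted p of 2.86e-05, 6.1e-05 and 0.000252. In line 4 it fell, with arrays at −0.38, −0.20 and −0.26 (mean −0.28, adjusted p = 0.00177), so that COX1 and COX3 of 1 enzyme changed in opposite directions there. COX3 lay between −0.06 and 0.09 in lines 1, 3, 5 and 7.

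COB, cytochrome b of complex III, was the subunit row that did not join the others. It fell in line 2 (−0.26, adjusted p = 0.00738) and line 5 (−0.22, adjusted p = 0.0231), and rose in line 3 (0.20, adjusted p = 0.0402). In lines 1, 4, 6, 7 and 8 its means were −0.12, −0.09, −0.19, 0.06 and 0.10, none past the test. Its mean over the 8 lines was −0.06 ± 0.17, the only negative one among the rows with a role measured in at least 6 lines.

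ATP6, ATP8 and OLI1 form part of the membrane sector of ATP synthase, where OLI1 makes the rotating ring. OLI1 rose in 5 lines, by 0.67, 0.87, 0.50, 0.40 and 0.47 in lines 2, 4, 6, 7 and 8, with adjusted p of 5.97e-08, 1.35e-10, 8.16e-06, 0.00024 and 7.28e-05. Its arrays in line 4, at 0.82, 1.01 and 0.78, did not overlap those of lines 1, 3 and 5, which ran from −0.24 to 0.24. ATP8 rose by 0.68, 0.46, 0.51 and 0.39 in lines 2, 4, 6 and 8 and fell by 0.25 in line 5 (adjusted p = 0.0155). Its means were −0.04, −0.06 and 0.01 in lines 1, 3 and 7.

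ATP6 was the least precise of these rows. It was called in line 6 at a mean of 1.08 (adjusted p = 0.000669), but the 3 arrays read 1.43, 1.82 and −0.01. Fitted with the arrays of line 6 alone the adjusted p was 0.0599, and without the first or the second array the mean fell to 0.91 or 0.71. In line 2, where it also passed the test, the arrays read 0.46, 1.49 and 0.82 (adjusted p = 0.0019). Line 8 had 0.19, 0.42 and 0.91, which did not pass. The means in lines 1, 3, 5 and 7 were −0.15, 0.21, 0.15 and 0.05, none past the test. In line 4 a single array gave a value, −0.65, and both comparisons with the diploid were empty.

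VAR1, the mitochondrially encoded protein of the small mitochondrial ribosomal subunit, had a mean above 0 in 7 of 8 lines. It passed the test in lines 1 (0.41, adjusted p = 0.0235) and 6 (0.55, adjusted p = 0.00373). Its arrays could spread widely, as in line 4 at 0.46, −0.43 and 0.41 (SD 0.50). VAR1 measured 0.34, −0.01, 0.15, 0.21, 0.21 and 0.26 in lines 2, 3, 4, 5, 7 and 8. The mean over the 8 lines was 0.27 ± 0.17.

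**Figure D3:**
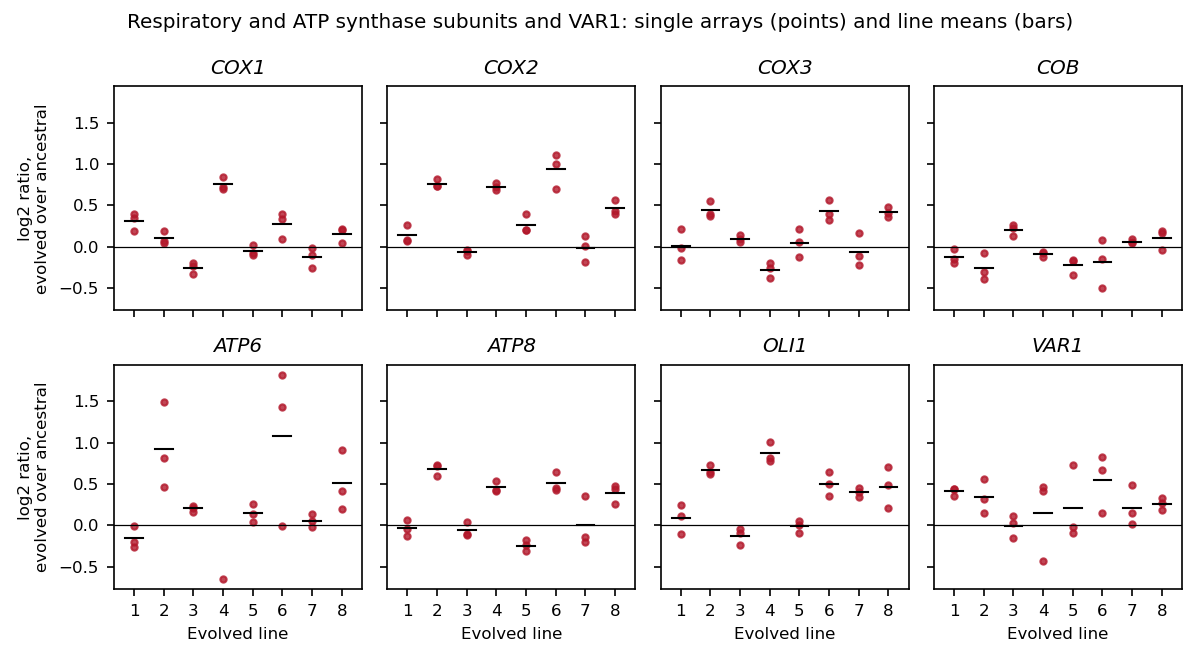
Log2 ratio, evolved over ancestral (vertical), of the 7 subunit rows and VAR1 on single arrays (points) of the 8 lines (horizontal), with bars at the mean of each line with at least 2 arrays. COX2, ATP8 and OLI1 stand high in lines 2, 4, 6 and 8, COB does not, and the arrays of ATP6 spread from −0.01 to 1.82 in line 6.

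The intron-encoded rows are splicing factors (maturases) and homing endonucleases, enzymes that cut and copy their own introns into intronless genes. All 10 had a mean above 0 in line 2 and in line 6, and all 9 measured had one in line 4. Past the test and higher were 6 of 10 in line 2, 7 of 9 in line 4, 9 of 10 in line 6 and 6 of 10 in line 8, with none lower in these lines. Of all rows, 24%, 35.6%, 19.2% and 11.2% passed higher in lines 2, 4, 6 and 8. Line 1 had 1 higher and 3 lower (20% and 20.6% of all rows), and line 3 had none past the test in either direction.

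AI5_BETA, an intron-encoded row of *COX1* without a well-defined function, had the widest range of the members measured in all 8 lines, 1.77 between line 4 and line 1. In line 4 its arrays read 1.47, 1.43 and 1.26 (mean 1.39 ± 0.11, adjusted p = 2.81e-13), a 2.62-fold difference. It rose by 0.67 in line 2, 0.71 in line 6 and 0.29 in line 8, and fell by 0.38 in line 1 and 0.34 in line 5 (adjusted p = 0.000869 and 0.00244). In lines 3 and 7 it measured 0.16 and −0.10, neither past the test. The line 4 arrays overlapped those of no other line.

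SCEI, the homing endonuclease from the intron of the large mitochondrial ribosomal RNA, followed a different order of lines. It was called in line 4, with arrays at 1.14, 1.09 and 0.87 (mean 1.03, adjusted p = 5.64e-12), and rose by 0.56 in line 7, 0.38 in line 5, 0.28 in line 6 and 0.27 in line 8. It stayed at −0.03, 0.03 and 0.09 in lines 1, 2 and 3. Line 7 was thus high for SCEI and OLI1, but not for COX2 or AI5_BETA. The call in line 4 stood close to the 2-fold limit, and the mean was 0.98 without replicate 1.

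Among the rows not matched to the annotation, Q0144 ran opposite to the set. Its mean over the 8 lines, −0.49 ± 0.39, was the lowest of all members, with line 1 the only line above 0 (0.12). It read −0.99, −1.10 and −0.92 in line 5 (mean −1.004, adjusted p = 5.68e-12), where it was called. It fell by 0.86, 0.74, 0.49, 0.62 and 0.28 in lines 2, 4, 6, 7 and 8, and measured −0.07 in line 3. Without replicate 2 the mean of line 5 was −0.95, under the 2-fold limit.

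Q0143 and Q0297 each stood out in 1 line. Q0143 read 1.10, 1.11 and 0.94 in line 4 (mean 1.05, adjusted p = 1.07e-11) and lay between −0.30 and 0.10 in the other 7 lines. Q0297 fell to −0.99, −0.46 and −0.97 in line 2 (mean −0.81, adjusted p = 4.89e-06) and lay between −0.32 and 0.08 in the other lines. The remaining rows without a role ran from −0.60 to 0.75 over all lines.

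No member passed the adjusted test for a response common to the 8 lines, in which the line is the replicate (0 of 27 in limma, against 0 of 6306 rows tested, or 0%). At an unadjusted p under 0.05 there were 10 of 27 members (37%), against 17% of all rows. The smallest adjusted p among members was 0.228, for VAR1 and Q0144. Limma run on the 24 single arrays with the line as a random block gave 4 of 27 members past the adjusted p, against 5.38% of all rows. Without line 1 the count was 1 of 27 (2.91% of all rows), and with its sign turned 2 of 27 (7.58%). No member of 26 had the same sign in all 8 lines, as did 1.93% of all rows, and 4 had it in at least 7 (15.4%, against 17.9% of all rows), with AI2, VAR1 and SCEI above 0 and Q0144 below. With the sign of line 1 turned, SCEI and Q0144 had 1 sign in all 8 lines (7.69% of members, against 8.83% of all rows).

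Differences between lines were larger than the spread of arrays for most members, as for most rows of the table. In limma's F test over the 8 lines, 23 of 26 members passed the adjusted p, against 88.9% of all rows. With a 2-fold range also required, 6 members were called (23.1%, against 25.1% of all rows). These were AI5_BETA (range 1.77), Q0143 (1.35), Q0144 (1.12), SCEI (1.07), COX1 (1.01) and COX2 (1.00). The share was near the background, so the members did not stand out by how many differed between lines.

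The ratios of the members were alike across several lines. Across the 28 rows the Pearson correlation was 0.91 between lines 2 and 6, against 0.75 over all rows, 0.78 between lines 6 and 8, against 0.44, and 0.68 between lines 2 and 8, against 0.22. Lines 4 and 2 had 0.48 over 26 rows, against 0.39 over all rows, but lines 4 and 8 had 0.20. Of the lines in which the members lay around 0, lines 5 and 7 were alike, with 0.68 (0.54 over all rows). Lines 1 and 3 had −0.50 (−0.71 over all rows), and the other pairs among lines 1, 3, 5 and 7 lay between −0.16 and 0.11. Line 4 had 0.55 with line 5 and 0.53 with line 7. Line 5 also had 0.53, 0.52 and 0.40 with lines 2, 6 and 8 (0.44, 0.35 and 0.02 over all rows). Line 7 had 0.41, 0.30 and 0.33 with lines 2, 6 and 8 (0.18, 0.01 and −0.21 over all rows). These are correlations across rows, which can report overlapping RNA and are not independent replicates. Arrays of lines 2, 3, 6 and 8 also had the fewest empty cells over the whole table, 58 to 127 per line, against 285 to 564 in lines 1, 4, 5 and 7. The median of the members averaged 0.20 over lines 2, 3, 6 and 8 and 0.07 over the others, and the part of this division in the result was not tested.

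The diploid was the common partner for both clones of line 4, so these comparisons share RNA sources with the direct one. In evolved 4 over the diploid, 0 of 26 rows were called (1.29% of all rows), with 17 at an unadjusted p under 0.05 (56.5% of all rows), and in ancestral 4 over the diploid 1 was called, Q0297 (3.4% of all rows). Past the adjusted p alone, evolved 4 had 10 rows higher (26.9% of all rows) and 4 lower (24.6%) than the diploid. Ancestral 4 had 8 higher (29.7%) and 11 lower (35.6%). The rows with a role had a median of 0.11 ± 0.06 in evolved 4 and −0.30 ± 0.08 in ancestral 4 (mean of array medians ± SD, n = 3), and these array medians did not overlap. In evolved 4, 6 of 16 such rows passed higher and none lower, and in ancestral 4, 3 passed higher and 8 lower.

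The difference between the 2 comparisons, evolved 4 minus ancestral 4 through the diploid, was tested in the same model. AI5_BETA was called, 1 of 26 (3.85%, against 6.94% of all rows). By the adjusted p alone 15 members passed higher (31.9% of all rows) and 5 lower (25.2%). Of the 16 rows with a role, 12 passed higher, and the lower ones were COB and COX3.

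AI5_BETA read 0.66, 0.81 and 0.56 in evolved 4 and −0.29, −0.81 and −0.30 in ancestral 4 against the diploid, a difference of 1.14 ± 0.12 (SE, adjusted p = 2.5e-08). Without replicate 2 the difference was 0.90, and under quantile normalization it was 0.94, both under the 2-fold limit. COX1 read 0.15, 0.09 and −0.10 in evolved 4, and −0.79, −1.18 and −0.83 in ancestral 4. The COX1 level of ancestral 4 was thus below the diploid on every array, that of evolved 4 did not pass the test against the diploid (0.04, adjusted p = 0.633), and the difference was 0.98 ± 0.10 (adjusted p = 1.95e-08). SCEI read −0.09, −0.03 and −0.31 in evolved 4, and −0.91, −1.12 and −0.95 in ancestral 4, with a difference of 0.85 ± 0.11 (adjusted p = 2.68e-07). Q0143 read 0.43, 0.59 and 0.36 in evolved 4 and −0.24, −0.54 and −0.17 in ancestral 4, a difference of 0.78.

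OLI1 was likewise near the diploid in evolved 4 (mean 0.01) and below it in ancestral 4 (−0.60), a difference of 0.61 ± 0.11 (adjusted p = 2.41e-05). COX2 had means of 0.31 in evolved 4 and −0.38 in ancestral 4, both past the test, on opposite sides of the diploid, and VAR1 had 0.08 and −0.46. COB had the other sign, −0.10 in evolved 4 and 0.37 in ancestral 4, a difference of −0.47 ± 0.11 (adjusted p = 0.000665). COX3 had −0.11 in evolved 4 and 0.16 in ancestral 4, neither past the test, though their difference passed, at −0.27 (adjusted p = 0.0317). ATP8 had 0.26 and −0.07, a difference of 0.33 (adjusted p = 0.0141).

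Q0297 was low in both clones, at −0.77, −0.75 and −0.69 in evolved 4, and at −1.20, −0.67 and −1.27 in ancestral 4, with a difference that did not pass the test (0.31, adjusted p = 0.127). The call in ancestral 4 was lost without replicate 1 or replicate 3, when the mean was −0.97 or −0.93, and under quantile normalization, at −0.74. Q0144 had −0.24 in evolved 4 and 0.16 in ancestral 4, a difference of −0.39.

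**Figure D4:**
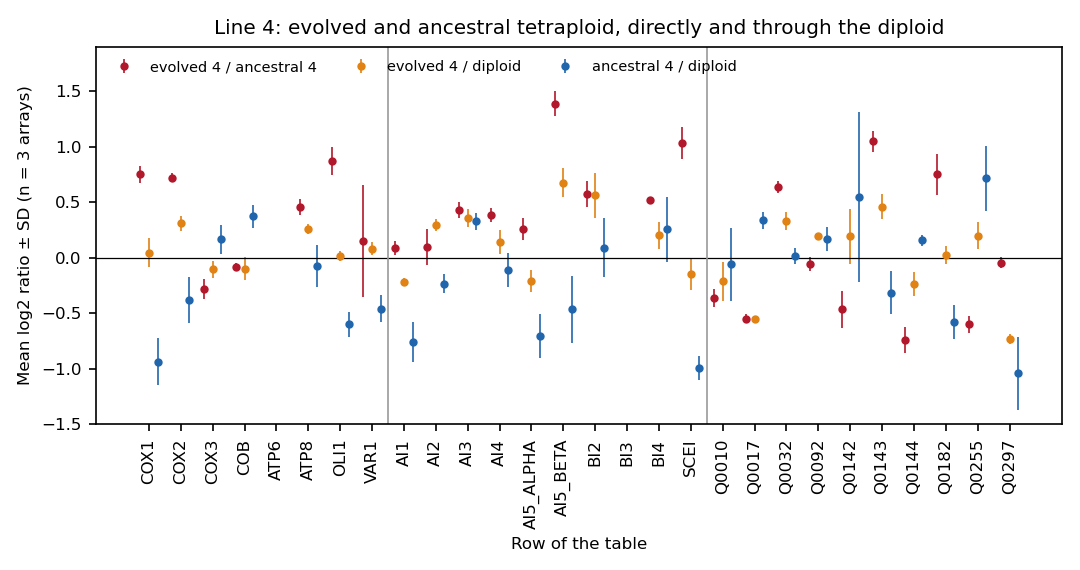
Mean log2 ratio ± SD over 3 arrays (vertical) of each row (horizontal; vertical lines part subunits and VAR1, intron-encoded and other rows) for evolved 4 over ancestral 4, evolved 4 over the diploid and ancestral 4 over the diploid. For COX1, OLI1 and SCEI the ancestral 4 points lie at −0.94, −0.60 and −0.99 while the evolved 4 points against the diploid lie near 0; ATP6 and BI3 lack these values.

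Whether the members vary together was described by Pearson correlations over the 30 arrays, which share dyes, clones and technical triplicates, so no p is given. Over the 26 complete rows the mean pairwise correlation was 0.12, against 0.0018 over all pairs of the 5701 complete rows of the table. Of the 325 pairs of members, 196 were above 0 and 78 above 0.5. Rows close to each other in the file were also alike in general, with a mean correlation of 0.073 between successive rows, so the members were set beside successive blocks of 26 complete rows. The 219 blocks had a median of 0.029 and reached 0.21, and 8 of them were higher than the members. The block just after them was one, at 0.17.

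The rows with a role had a mean correlation of 0.33 over 16 complete rows. The 10 other members had −0.05 among themselves and 0.0095 with the rows with a role, and taken singly they went both ways, 5 above 0 and 5 below. Q0182 (0.34) and Q0032 (0.26) were closer to the rows with a role than AI3 (0.25), COX3 or COB was, and Q0144 was the farthest of the 10, at −0.29. The next 26 rows of the file had a mean correlation of 0.11 with the rows with a role and 0.014 with the other members. Over the median of 28 successive rows, 0 of 227 blocks were higher than the members in line 6, 0 in line 8, 1 in line 4 and 7 in line 2. In lines 1, 3, 5 and 7 there were 113, 96, 148 and 151. Against the diploid, 32 blocks were higher in evolved 4 and 160 in ancestral 4. The next 28 rows had medians of 0.34 in line 6, 0.26 in line 4, 0.14 in line 2 and −0.51 in line 8, so only line 8 set the members apart in sign from their neighbours among these 4 lines.

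**Figure D5:**
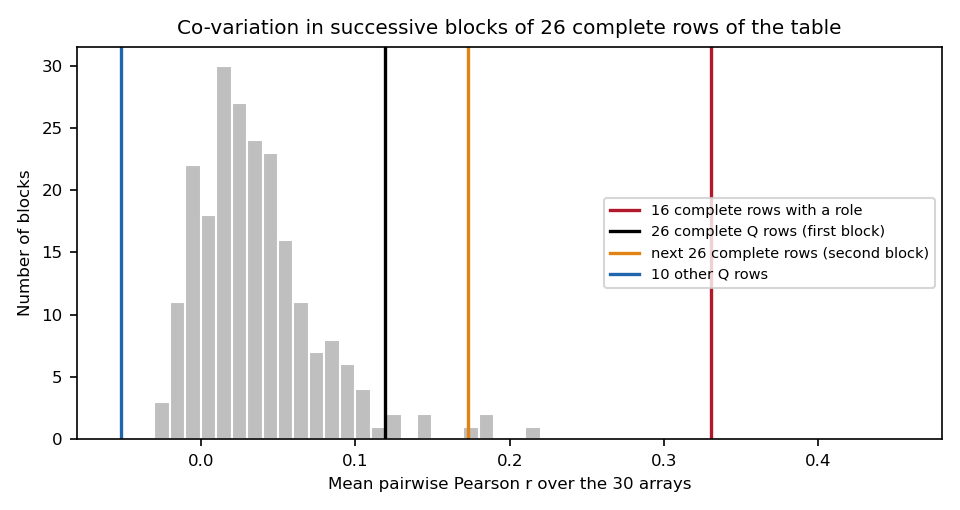
Number of successive blocks of 26 complete rows of the table (vertical, grey) by their mean pairwise Pearson correlation over the 30 arrays (horizontal). Lines mark the 16 complete rows with a role (0.33), the 26 complete members (0.12), the next 26 rows (0.17) and the 10 other members (−0.05). The sets marked differ in size from the blocks, except the 26 members and the next 26 rows.

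Rows from a common primary transcript were set beside the rows with a role, which had a mean correlation of 0.33 over 16 complete rows. The value was 0.48 over the 14 rows other than COB and COX3, which were the least alike of these rows in the same data. COX1, the AI rows and ATP8, 8 rows from 1 primary transcript, had a mean pairwise correlation of 0.49, and OLI1 with VAR1 had 0.49. BI2 and BI4, both in introns of COB, had 0.46 with each other. COB was the exception, since with COB included the 3 rows had 0.048, and COB had a mean correlation of −0.42 with the other 15 rows with a role, all of which were above 0 by the same measure. COX2 was the most typical row, with 0.55, followed by AI4 with 0.51 and AI5_BETA with 0.48. COX3 had 0.12. The closest pair was SCEI with Q0182, its neighbour in the file, at 0.94, and the most opposed was SCEI with Q0255, at −0.83.

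Nuclear genes of the same pathways were counted under their listed names, with the limit on those names given above. Of 35 rows listed as nuclear subunits of oxidative phosphorylation, 9 passed higher and 3 lower in line 6 (19.2% and 20.8% of all rows), with a median of 0.07. In line 2, 13 passed higher and 3 lower (24% and 23.9% of all rows), with a median of 0.05. In line 8, 2 passed each way (11.2% and 11.1%), and in line 4, 9 passed higher and 10 lower of 33 (35.6% and 31.1%). Rows listed as mitochondrial ribosomal proteins had 8 higher and 11 lower of 53 in line 6, and those listed as nuclear factors of mitochondrial gene expression 9 higher and 4 lower of 30, beside the shares of all rows given for that line. The medians of these 2 lists in line 6 were −0.02 and 0.03. Their mean pairwise correlations, −0.0023 for the subunits, −0.0051 for the ribosomal proteins and −0.0049 for the factors, were near that over all rows.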

How the data were processed

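Total RNA from pairs of cultures was labelled with Alexa Fluor 647 (culture named first) or Alexa Fluor 555 and hybridised to spotted oligonucleotide arrays. The deposited values are log2 ratios. The authors dropped dim spots close to background and corrected each array separately with a LOWESS curve. The direction rests on the labels, 0 arrays were dye-swapped, and a row-specific dye effect stays in each direct ratio but cancels in evolved 4 minus ancestral 4 through the diploid. Scanner intensities were not used here, so signal over background is unknown, and precision is limited by the array number. The primer used for labelling is not given in the sources used here. The 84 cells at the lowest value of the table (−6.64, none in the Q rows) were set to missing, beside 3053 empty cells.

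Groups came from the sample titles. All 30 arrays were fitted in 1 model of 10 groups in limma 3.58.1 (R 4.3.3; lmFit and eBayes), on rows with at least 2 of 3 arrays, with Benjamini-Hochberg adjustment over all rows of a comparison. Rows were called at 2-fold or more, up or down, when the adjusted p was also under 0.05. For the common response, rows measured in at least 6 lines entered a fit of their line means. Python 3.11.15 (pandas 2.3.3, numpy 2.4.6) gave medians and correlations, and matplotlib 3.10.9 the figures. The scripts were tested on simulated data. Names came from the RefSeq R64 annotation, which matched 19 of 28 identifiers.

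The members and gene lists were chosen with earlier results of these data known, and the division into 18 rows with a role and 10 others was applied after values had been seen. Named with a value or a range for every line are the 7 subunits, VAR1, any member called in a comparison or in the difference, and the members with the highest and the lowest mean over the lines. Other members named for being extremes of a description were chosen after their values were seen. Alternatives were other scalings, filters, tests and fits, the replicate number as a block, and single replicates (of every comparison at once) or lines left out. Replicate numbers did not pair arrays across comparisons, with a mean correlation of deviations of 0.0035 between arrays of equal number.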

Additional observations from a re-analysis of the deposited data

Results flagged for a closer look

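Among the 8 lines, single lines stood apart from the others for 2 of the 29 measures examined in this way, where chance gives about 1 in 20. Q0143 was apart in line 4, at 1.05, and Q0297 in line 2, at −0.81. The effect differed between lines, by limma's F test past the adjusted p and with at least a 2-fold range, for AI5_BETA (range 1.77), Q0143 (1.35), Q0144 (1.12), SCEI (1.07), COX1 (1.01) and COX2 (1.00). For AI5_BETA the difference of evolved 4 minus ancestral 4 through the diploid, 1.14, was also past the test and the 2-fold limit.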

How the results depend on the processing

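Of 286 alternatives over 20 results, 222 kept direction, side of the threshold and size, 21 lost the call, 5 gained one, 38 moved and 0 reversed. For the 5 calls over the 8 lines, centring each array gave 3, quantile normalization 2 and no fold minimum 101. Leaving out 1 replicate gave 3 to 6. The methods' t-test, a test the study does not name, gave 3 at 2-fold with an unadjusted p under 0.005. It also gave 3 at 2-fold with a Benjamini-Hochberg adjusted p under 0.05. For the 1 call against the diploid these were 0 by quantile normalization and both t-tests, 33 with no fold minimum and 1 to 2 without 1 replicate. For the difference through the diploid, quantile normalization gave 0, no fold minimum 20 and leaving out 1 replicate 0 to 2. The 6 members that differed between lines became 23 with no fold minimum. Members passing higher, with no fold limit, were 13, 20 and 12 in lines 2, 6 and 8. By the t-test at an adjusted p under 0.05 they became 5, 0 and 0. At an unadjusted p under 0.005 they became 3 in each of these lines. Without 1 replicate, line 8 had 7 to 11. The common response gave 1 member without line 1, 4 with the line as a random block and 2 with the sign of line 1 turned. The mean over lines of the members' median, 0.14, was 0.038 with a running median over 99 rows subtracted (a window that itself holds the members), 0.21 for the 18 rows with a role, −0.040 for the 10 others, 0.20 for lines 2, 3, 6 and 8 and 0.074 for lines 1, 4, 5 and 7. The mean correlation, 0.12, was 0.11 centred, 0.13 by quantile normalization, 0.051 after the running median, 0.33 and −0.051 in the 2 classes, and 0.115 to 0.131 without 1 replicate. The causes were not tested. As a block the replicate number, whose estimated correlation was −0.0094, left 5, 1, 1 and 6 calls and changed no other call. The running median, the sign of line 1, the 2 classes and the 2 sets of lines were chosen after seeing the data.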
